A study of Arabidopsis thaliana with 36 samples.

Results

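Roots of plants given nitrate on both sides of a plate were compared with roots of plants given chloride on both sides, 2 hours after transfer. The 6 arrays, 3 per salt, were chosen by their titles out of the 36 arrays of a split-root experiment on Arabidopsis thaliana, accession Columbia. In C.NO3 both compartments held 5 mM KNO3, and in its control, C.KCl, both held 5 mM KCl, so that potassium was the same. On split plates 1 compartment held each salt, and the roots of the nitrate side (Sp.NO3) and the chloride side (Sp.KCl) were sampled apart. All plants were grown on 0.1 mM KNO3 and 3 mM sucrose and lost the tip of the primary root after 8 to 10 days, with 4 days of regrowth. They were pretreated on 0.5 mM ammonium succinate with 0.3 mM sucrose. They entered the treatment, for which 0.3 mM sucrose is listed, at 12 to 14 days of age. Each group has 3 biological repeats.

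The titles and the treatment characteristics of the chloride samples disagree on which are uniform and which are split. The titles were followed, as the source names repeat them, and the calls, the named genes, the gene lists and the span classes were recomputed with the C.KCl and Sp.KCl groups exchanged. For the lists and span classes this was chosen after seeing the data.

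Nitrate is both a nutrient and a signal for roots. It is taken up by membrane transporters and reduced to nitrite in the cytosol by a molybdenum enzyme, and nitrite enters the plastids, where it is reduced to ammonium. Within minutes to hours nitrate induces genes for these steps and for the reductant they use, along with repressors of the GARP family that later limit uptake. Because the plants had been fed ammonium and the control received the same cation as chloride, the comparison asks about nitrate itself at the earliest time sampled.

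Signals are MAS5 intensities, a measure of probe set brightness, and differences are in log2 of the signal plus 16, nitrate minus chloride, with the standard error (SE) of a limma fit to all 36 arrays. A probe set is called when its limma p lies below 0.05 after Benjamini-Hochberg adjustment across all 15922 tested. Fold values refer to the same scale and understate the change of dim probe sets. Levels of different probe sets are not comparable. In whole roots, fewer cells of a type and less RNA per cell cannot be told apart.

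The control probe sets for the 3′ and 5′ ends of 3 transcripts differed between the groups. Their 3′-5′ index, the mean log2 ratio of 3′ to 5′ signal, rises when RNA or labelled product is shorter. It was 0.665, 0.855 and 0.805 on the C.NO3 arrays, against 1.09, 1.18 and 0.969 on the C.KCl arrays, without overlap. The Sp.NO3 arrays averaged 0.882 ± 0.117 and the Sp.KCl arrays 0.846 ± 0.101 (SD, n = 3). Median signals of all 36 arrays lay between 194 and 222. The root hair genes EXPA7, EXPA18 and GH9C1 were well detected, with summed signals of 3509 to 4081 in C.NO3 and 3293 to 3376 in C.KCl. Those of 3 shoot genes, RCA, LHCB4.1 and LHCB4.2, came to 508 to 1022 in C.NO3 and 548 to 1100 in C.KCl. No marker of either list was at 0, and none was called.

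After 2 hours of uniform nitrate 161 probe sets were called higher (1.01% of those tested) and 164 lower (1.03%), 2.04% together. With the repeats paired by their number as a block, 1176 (7.39%) were called, 550 higher (3.45%) and 626 lower (3.93%), and these include all 325. Without overlap between the 3 arrays of each salt were 7.4% of all tested probe sets in the higher and 10.1% in the lower direction, 17.5% together, against 159 of the 161 and 163 of the 164. Most differences were small. The median was 0.56 among the higher and -0.56 among the lower probe sets, and 16 higher and 10 lower probe sets differed by a log2 of 1 or more. Of the 161 higher probe sets 87 have 1 annotated gene, and of the 164 lower ones 91. Of the 9 with the largest increase 6 have none, among them the largest of all (1.79, adjusted p = 0.0341 by limma).

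The counts moved with single arrays. Without C.NO3 replicate 1 the count was 53, without replicate 2 it was 178, and without replicate 3 it was 711. Without C.KCl replicates 1, 2 and 3 it was 197, 64 and 184. With the index as covariate 31 were called, 22 higher (0.138%) and 9 lower (0.0565%), and 29 of them were among the 325. With the chloride groups exchanged 26 were called (0.163%), all higher, and 23 of them were among the 325.

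AT5G62720 was the most clearly separated gene of the nitrate pathway. It encodes a membrane protein of the HPP family, which is reported to carry nitrite into plastids. Its signals were 563, 640 and 663 in C.NO3, against 157, 192 and 236 in C.KCl. The groups did not overlap, and the gene was 3.05-fold higher on nitrate (log2 1.61 ± 0.15, adjusted p = 4.37e-08 by limma). On split plates it read 435, 620 and 708 in Sp.NO3, against 186, 182 and 258 in Sp.KCl, so that the chloride side of a plant with nitrate elsewhere stayed at the level of uniform chloride. The call held with the index as covariate (1.59, adjusted p = 8.81e-06), with the chloride groups exchanged (1.52, adjusted p = 1.77e-07) and without any 1 of the 6 arrays.

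Its relative AT3G47980, of the same family, has 2 probe sets. The 1 with the smaller p read 349, 285 and 362 in C.NO3, against 242, 214 and 238 in C.KCl. It rose by 0.49 ± 0.13 (adjusted p = 0.0496), a call lost without any array but C.NO3 replicate 2 (adjusted p of up to 0.205). The other read 725, 824 and 871 in C.NO3, against 614, 627 and 615 in C.KCl, and did not pass (0.37 ± 0.21, adjusted p = 0.366). Of the list of nitrate uptake and assimilation genes, 20 in all, the annotation names only these on 3 tested probe sets, and 2 of the 3 were called higher (66.7%, against 1.01% of all). The call of AT3G47980 was lost with the index as covariate (adjusted p = 0.467) and with the chloride groups exchanged (adjusted p = 0.581). The median of the 3 was 0.49, against -0.02 over all probe sets tested.

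Of 6 tested regulators of the nitrate response, 3 repressors were higher as well. AT3G25790, AT1G25550 and AT1G68670 are GARP factors of the HRS1 and NIGT1 group, which nitrate induces and which repress nitrate transporter genes. AT3G25790 read 240, 250 and 189 in C.NO3, against 112, 130 and 106 in C.KCl (0.87 ± 0.17, adjusted p = 0.00672). AT1G25550 read 654, 844 and 659 in C.NO3, against 383, 370 and 406 in C.KCl (0.86 ± 0.16, adjusted p = 0.00411). AT1G68670 read 1055, 989 and 950 in C.NO3, against 622, 603 and 568 in C.KCl (0.72 ± 0.13, adjusted p = 0.00397). In each of the 3 every nitrate array lay above every chloride array, as in 7.4% of all tested probe sets.

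The chloride side of split plates stayed low for these factors, with 103 for AT3G25790 and 404 for AT1G25550 as the mean of Sp.KCl. AT3G25790 kept its call with the index as covariate (1.02, adjusted p = 0.0233) and lost it without C.NO3 replicate 1 (adjusted p = 0.0524). AT1G25550 and AT1G68670 kept theirs without any 1 array and lost them with the index as covariate (adjusted p = 0.184 and 0.115). With the chloride groups exchanged AT1G68670 had an adjusted p of 0.0802. AT4G37180, AT1G49560 and AT3G60320, other members of the list of regulators, differed by 0.23, -0.04 and -0.08 and did not pass. The list has 26 genes, of which 6 were tested, and 3 of the 6 were higher (50%, against 1.01% of all), 2 of them also with the chloride groups exchanged.

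Of the reductant and redox genes 0 passed in the fit without block or covariate. The 6-phosphogluconate dehydrogenases, which make NADPH in the oxidative pentose phosphate pathway, are AT1G64190, AT3G02360 and AT5G41670. AT1G64190 read 4677, 4833 and 4206 in C.NO3, against 3957, 3596 and 3911 in C.KCl (0.26 ± 0.10, adjusted p = 0.161). The arrays did not overlap, and with the index as covariate it passed (0.47, adjusted p = 0.0343). AT5G41670 read 2228, 1887 and 2061 in C.NO3, against 1823, 1427 and 1494 in C.KCl (0.38 ± 0.14, adjusted p = 0.129, blocked 0.0211). AT3G02360 and SIR, the sulfite reductase, differed by 0.04 and 0.05. All 4 tested members were positive. In the fit without block or covariate 0 of 4 passed, with the block 1 and with the index as covariate 1.

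Among the CC-type glutaredoxins, small redox proteins particular to plants, AT3G62930 read 106, 93.2 and 88.6 in C.NO3, against 52.6, 51.3 and 44.2 in C.KCl. The groups did not overlap, but its 0.78 ± 0.23 missed the threshold (adjusted p = 0.0734) and passed with the block (0.0246). AT2G47880 and AT1G06830 differed by 0.13 and 0.06, so that 0 of 3 passed. Of 10 other thioredoxins and glutaredoxins 0 passed, and THX, TO1 and ATHM2 were higher with the block only (adjusted p = 0.0401, 0.0348 and 0.0403).

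For cytokinin, ARR15 showed a difference of 0.14 ± 0.22 and RR16 one of -0.24 ± 0.24. Both are type-A response regulators, which damp the cytokinin signal, and 0 of 2 passed. The transporters AT3G45700 and AT3G45710, of the list of potassium and chloride transport, differed by 0.30 ± 0.14 and 0.19 ± 0.13, and 0 of 2 passed. AT2G43760, which encodes a subunit of molybdopterin synthase and so serves the cofactor of nitrate reductase, was higher. It read 1976, 1574 and 1761 in C.NO3, against 1211, 1010 and 990 in C.KCl (0.72 ± 0.10, adjusted p = 0.000200). It kept its call with the index as covariate (adjusted p = 0.0232), but with the chloride groups exchanged it differed by 0.36 (adjusted p = 0.468).

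The 12 named genes with the largest increase fell into separate patterns on split plates, as the plot of signals by gene shows. None of the 12 overlapped between the salts on uniform plates, which their choice from these same arrays made likely. Of all tested probe sets 7.4% were higher without overlap. Of the 12, 4 kept their call with the index as covariate and 5 with the chloride groups exchanged. For 9 of them the Sp.KCl mean was nearer to C.KCl than to C.NO3 on the log2 scale, as for 5638 of all 15922 tested. AT5G10210 read 502, 346 and 311 in C.NO3, against 96.3, 118 and 105 in C.KCl (3.23-fold, log2 1.69 ± 0.25, adjusted p = 0.000200). Its split-plate difference was 1.57. AT1G49500 read 1832, 2767 and 2058 in C.NO3, against 604, 1033 and 892 in C.KCl (2.62-fold, 1.39 ± 0.28, adjusted p = 0.00824), and 1.27 on split plates. Both separate completely by salt on both kinds of plate, and no role is given for either here. AT1G49500 was not called on split plates (adjusted p = 0.0580). Its uniform-plate call was lost with the index as covariate (adjusted p = 0.220) and with the chloride groups exchanged (adjusted p = 0.0564).

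PGM, a phosphoglycerate mutase of central carbon metabolism, read 950, 761 and 841 in C.NO3, against 514, 449 and 394 in C.KCl (0.89 ± 0.13, adjusted p = 0.000200). On split plates it read 852, 768 and 739 in Sp.NO3, against 527, 456 and 443 in Sp.KCl (0.71, adjusted p = 0.00916). AT3G19030 (0.94 ± 0.17, adjusted p = 0.00242) and AT3G16560, a protein phosphatase of type 2C (0.94 ± 0.19, adjusted p = 0.00940), likewise had Sp.KCl means close to C.KCl. AT4G33960 (1.03 ± 0.26) and AT4G18340 (0.95 ± 0.22), a beta-glucanase of the cell wall, had intermediate split-plate differences of 0.57 and 0.53. Each of these last 2 lost its call without 4 of the 6 arrays, AT4G33960 without C.KCl replicates 1 and 2 or C.NO3 replicates 1 and 3, and AT4G18340 without replicates 1 and 2 of both groups.

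AT5G62720, AT5G10210 and PGM are the named genes that kept their call under the index covariate, the block, the exchange of chloride groups and each of the 6 leave-outs. They are 3 of 9 probe sets, all higher, for which this held, and the other 6 have no single annotated gene.

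**Figure D1:**
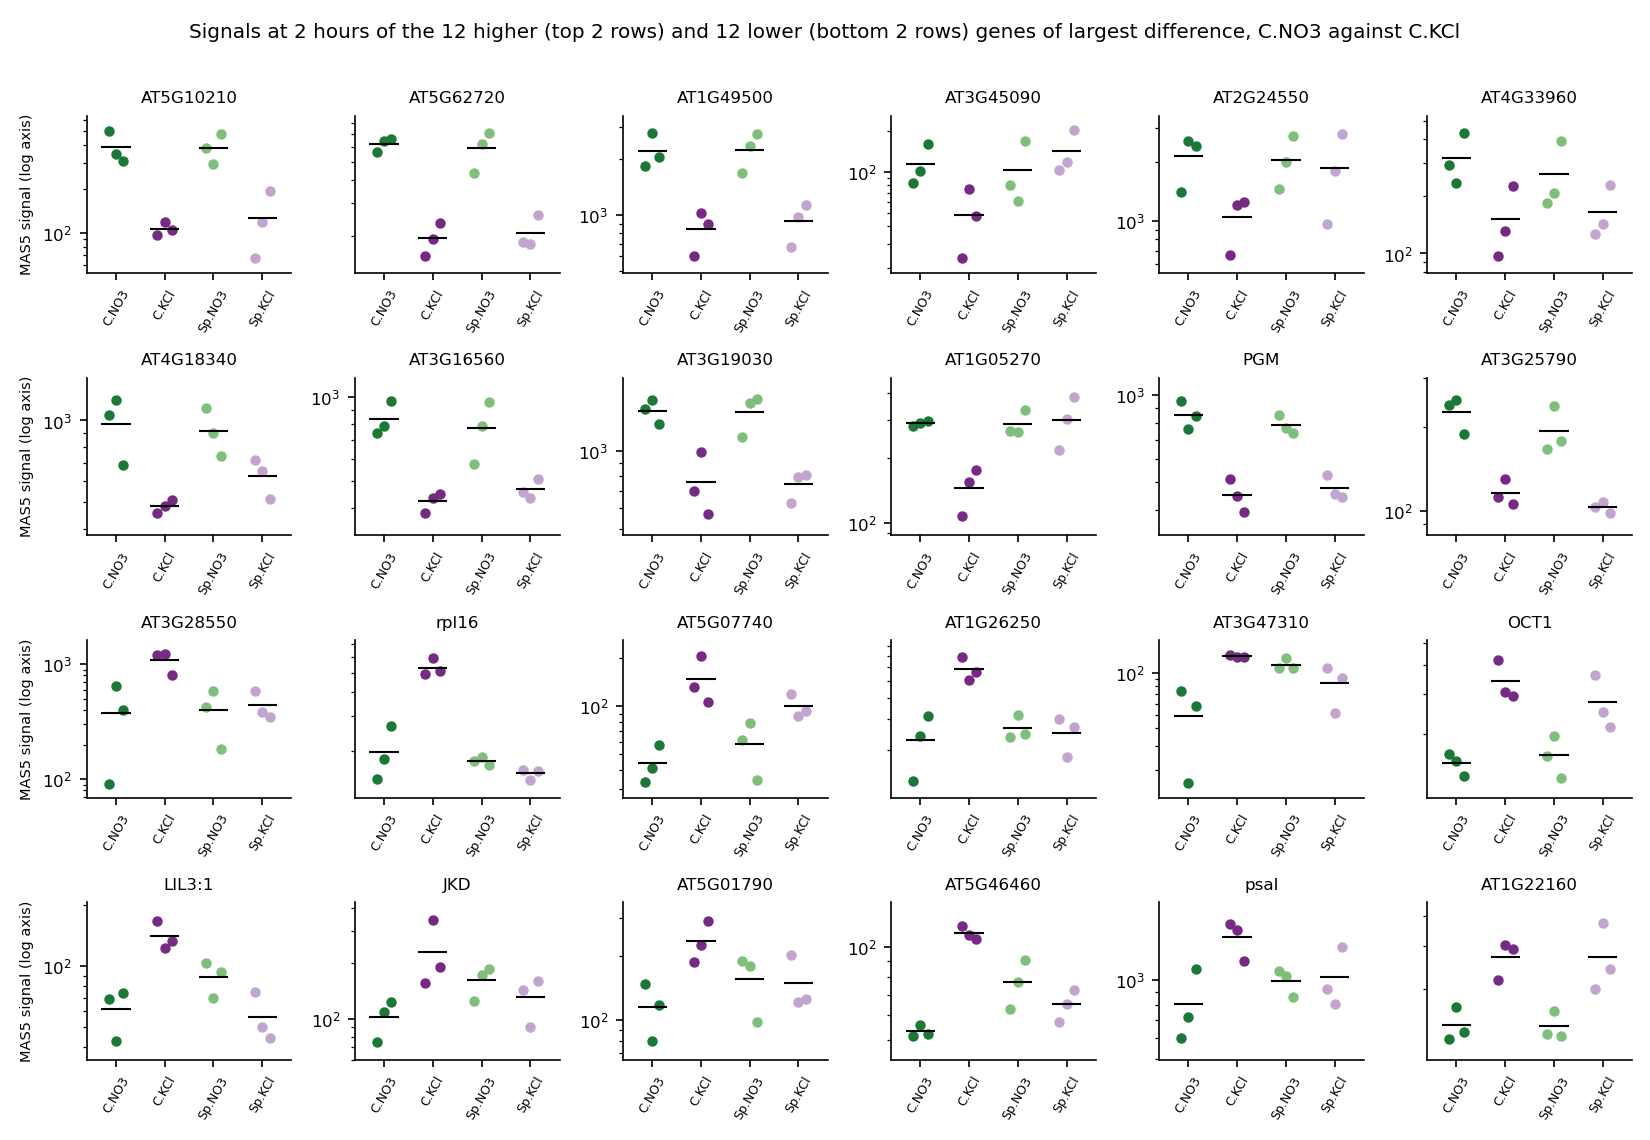
Signals (log axis) at 2 hours of the 12 higher genes (upper rows) and 12 lower genes (lower rows) of largest difference, 1 point per array and a line at the mean, in C.NO3, C.KCl, Sp.NO3 and Sp.KCl. Of the higher genes 9 have Sp.KCl nearer to C.KCl, and of the lower genes 8 have Sp.KCl nearer to C.NO3. Over all 15922 tested probe sets Sp.KCl was nearer to C.KCl for 5638 and nearer to C.NO3 for 10284.

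For the other 3 of the 12 higher genes the Sp.KCl mean was nearer to C.NO3. AT1G05270 read 282, 289 and 295 in C.NO3, against 108, 155 and 176 in C.KCl (0.94 ± 0.18, adjusted p = 0.00411). Both sides of split plates were at the nitrate level, averaging 288 in Sp.NO3 and 301 in Sp.KCl, and the split-plate difference was -0.04. AT2G24550 (1.04 ± 0.27, adjusted p = 0.0412) and AT3G45090 (1.06 ± 0.29, adjusted p = 0.0465) had Sp.KCl means of 1860 and 141, against C.KCl means of 1042 and 48.6. By array AT2G24550 overlapped between Sp.KCl and C.KCl, while its Sp.NO3 arrays all lay above C.KCl. AT3G45090 overlapped between Sp.NO3 and C.KCl, while its Sp.KCl arrays all lay above C.KCl. AT2G24550 lost its call without C.KCl replicates 1 and 2 or C.NO3 replicates 2 and 3, and AT3G45090 without any array but C.KCl replicate 2.

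AT2G34590, FRO1 and AT1G16560 had smaller increases and split arrays that all lay above the C.KCl arrays. AT2G34590, the beta subunit of plastid pyruvate dehydrogenase, which makes acetyl-CoA for fatty acids, read 2116, 2282 and 2143 in C.NO3, against 1429, 1384 and 1507 in C.KCl (0.59 ± 0.10, adjusted p = 0.000823). Its means were 2177 in Sp.NO3 and 2238 in Sp.KCl. FRO1, a subunit of mitochondrial complex I, read 4017, 3309 and 3439 in C.NO3, against 2579, 2521 and 2632 in C.KCl (0.47 ± 0.07, adjusted p = 0.000382). Its means were 3667 in Sp.NO3 and 3511 in Sp.KCl.

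AT1G16560 read 1052, 1015 and 933 in C.NO3, against 527, 719 and 648 in C.KCl (0.66 ± 0.10, adjusted p = 0.000257), with means of 954 in Sp.NO3 and 1037 in Sp.KCl. AT2G34590, FRO1 and AT1G16560 kept their calls with the index as covariate and without any 1 array, and lost them with the chloride groups exchanged. AT1G52140 (0.76 ± 0.12, adjusted p = 0.000274) differed by 0.09 on split plates, and AT3G52220 (0.49 ± 0.12, adjusted p = 0.0367) by 0.19. With the chloride groups exchanged they differed by 0.30 and 0.26 and lost their calls. Among the leave-outs AT3G52220 kept its call without C.NO3 replicate 3 only.

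Among the genes lower on nitrate, 4 of the 12 of largest decrease had Sp.KCl means nearer to C.KCl, namely OCT1, AT1G22160, AT5G07740 and AT3G47310. Over all tested probe sets this held for 5638 of 15922. OCT1, a carrier of carnitine and other organic cations, read 1638, 1535 and 1312 in C.NO3, against 4210, 3049 and 2936 in C.KCl (2.24-fold lower on nitrate, log2 -1.16 ± 0.30, adjusted p = 0.0373). On split plates it read 1608, 1968 and 1296 in Sp.NO3, against 3627, 2494 and 2157 in Sp.KCl (-0.74, not called). AT1G22160 read 124, 168 and 133 in C.NO3, against 216, 303 and 292 in C.KCl (-0.86 ± 0.23, adjusted p = 0.0476), and -0.84 on split plates. Neither gene overlapped between the salts on either kind of plate. OCT1 lost its call without any 1 array (adjusted p = 0.0568 to 0.115), and AT1G22160 without any but C.KCl replicate 1.

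Of the 12 named genes with the largest decrease 8 had Sp.KCl nearer to C.NO3, as had 10284 of all 15922 tested probe sets. Of the 12, 2 kept their call with the index as covariate and 0 with the chloride groups exchanged. The largest decrease was that of AT3G28550. AT3G28550 and AT1G26250 encode extensin-like proline-rich proteins, which stiffen the cell wall. AT3G28550 read 90.9, 642 and 397 in C.NO3, against 1209, 1239 and 810 in C.KCl (-1.82 ± 0.50, adjusted p = 0.0494). Its wide spread on nitrate came from replicate 1, and the call was lost without that array or any C.KCl array. AT1G26250 read 132, 240 and 314 in C.NO3, against 691, 509 and 564 in C.KCl (-1.37 ± 0.30, adjusted p = 0.0148). Leaving out replicate 1 of either salt ended that call. The Sp.KCl mean was 440 for AT3G28550 and 251 for AT1G26250, nearer to nitrate than to uniform chloride.

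The formin AT5G07740, which nucleates actin filaments, read 33.6, 40.7 and 57.4 in C.NO3, against 132, 207 and 107 in C.KCl (-1.43 ± 0.37, adjusted p = 0.0367, lost without replicates 1 and 2 of either group). GH9B13, an endoglucanase of the wall, read 550, 956 and 786 in C.NO3, against 1019, 1312 and 1546 in C.KCl (-0.76 ± 0.16, adjusted p = 0.0127). Leaving out C.KCl replicates 2 or 3 or C.NO3 replicate 1 ended the call. It was the 1 member called of 10 tested GH9 members, of which 9 were negative (10%, against 2.04% of all), and GH9B8 and GH9C2 were lower with the block only (adjusted p = 0.0103 and 0.0387). HRGP1, a hydroxyproline-rich glycoprotein, differed by -1.10 ± 0.32 (adjusted p = 0.0613, blocked 0.0229).

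Expansins and xyloglucan-modifying enzymes, which loosen walls, did not move together, and 1 of 21 was called. EXPA9 read 1386, 1356 and 1209 in C.NO3, against 1008, 1009 and 863 in C.KCl (0.45 ± 0.12, adjusted p = 0.0367). Sp.NO3 and Sp.KCl averaged 1305 and 1398, as high as nitrate, and the call was lost without any array but C.NO3 replicate 3. In root hairs, EXPA7 differed by 0.34 ± 0.12 (adjusted p = 0.127) and EXPA18 by 0.36 ± 0.16 (adjusted p = 0.218), and neither overlapped between the salts. The third root hair marker, GH9C1, differed by -0.09 ± 0.14 and overlapped, and 0 of 3 passed.

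JKD, a zinc finger factor of the ground tissue of the root, read 74.4, 109 and 123 in C.NO3, against 156, 347 and 191 in C.KCl (-1.01 ± 0.25, adjusted p = 0.0292, lost without C.KCl replicate 2 or C.NO3 replicates 1 and 2). The 1 cortex gene tested, AT1G62500, differed by -0.23 ± 0.24. The myosins and kinesins XIC, XIH, XI-I, KINESIN-12B and KINESIN-13A were all negative, from -0.44 to -0.17, and 0 of 5 passed. AT3G47310, AT5G01790 and AT5G46460 complete the 12 of largest decrease, with -1.31, -0.94 and -0.87, and each lost its call in some leave-outs. AT3G47310 lost its call without replicate 2 of either salt, and AT5G01790 without C.KCl replicates 2 or 3 or C.NO3 replicates 1 or 2. AT5G46460 read 51.7, 55.9 and 52.4 in C.NO3, against 117, 109 and 106 in C.KCl. Its adjusted p of 0.0494 was close to the threshold, and the call was lost whichever array was left out. The bZIP factor bZIP19, which acts in the zinc deficiency response, was higher by 0.42 ± 0.10 (adjusted p = 0.0276), 1 of 17 bZIP factors. UBC27, a ubiquitin-conjugating enzyme, was higher by 0.41 ± 0.10 (adjusted p = 0.0283), 1 of 30 members of the ubiquitin system. On split plates bZIP19 and UBC27 differed by 0.02 and -0.02. Leave-outs of C.NO3 replicate 2 and C.KCl replicates 1 and 2 ended the call of bZIP19, and all but that of C.NO3 replicate 3 ended the call of UBC27.

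Transcripts of the plastid genome had mostly negative differences, and 5 passed the test. Of 59 tested probe sets 49 were negative, with a median of -0.31, against -0.02 over all probe sets tested, and 5 were called lower and 0 higher (8.47%, against 2.04% of all). With the block 11 were lower. Plastid genes encode parts of the photosynthetic complexes and of the plastid's own ribosomes and RNA polymerase. The largest difference was that of rpl16, a protein of the large ribosomal subunit, which read 1436, 1818 and 2674 in C.NO3, against 4909, 5936 and 5088 in C.KCl. It was 2.75-fold lower on nitrate (-1.46 ± 0.16, adjusted p = 9.87e-07), kept its call without any 1 array and with the index as covariate (-1.32, adjusted p = 0.000392), and had a sign turned to 0.31 with the chloride groups exchanged. The split arrays read near uniform nitrate, averaging 1789 (Sp.NO3) and 1544 (Sp.KCl).

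The photosystem I genes psaI and psaB came next. For psaI the signals were 599, 722 and 1094 in C.NO3, against 1627, 1542 and 1177 in C.KCl (-0.87 ± 0.21, adjusted p = 0.0320, lost without replicates 1 and 2 of either group). For psaB the means were 2288 in C.NO3 and 3818 in C.KCl (-0.80 ± 0.22, adjusted p = 0.0460). The ribosomal gene rps3 (-0.51 ± 0.13, adjusted p = 0.0331) and the photosystem II gene psbI (-0.43 ± 0.12, adjusted p = 0.0496) were the others called. Of these 3, psaB kept its call without C.NO3 replicate 3 only, rps3 without replicate 3 of either group, and psbI under no leave-out. The most positive member was psaJ, also of photosystem I, with 0.66 ± 0.29 and means of 2452 in C.NO3 and 1556 in C.KCl, and it did not pass. With the chloride groups exchanged the median of the 59 was -0.03, with 35 negative and 0 called. On split plates the median was 0.04, at 8 hours on uniform plates -0.03 and at 2 days 0.09.

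LIL3:1, a nuclear gene for a light-harvesting-like protein of chlorophyll synthesis, read 68.6, 42.6 and 74.1 in C.NO3, against 168, 123 and 134 in C.KCl (-1.03 ± 0.19, adjusted p = 0.00397). It averaged 88.8 in Sp.NO3, against 56.4 on the chloride side. The shoot genes RCA, LHCB4.1 and LHCB4.2 differed by -0.02, -0.07 and -0.08, and 0 of 3 passed, so that these nuclear photosynthesis genes gave no call beside the plastid transcripts. Of 7 mitochondrial probe sets 6 were negative, with a median of -0.23, and 0 passed. With the 3′-5′ index as covariate 1 of the 5 plastid calls held, against 29 of the 325 calls over all probe sets.

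**Figure D2:**
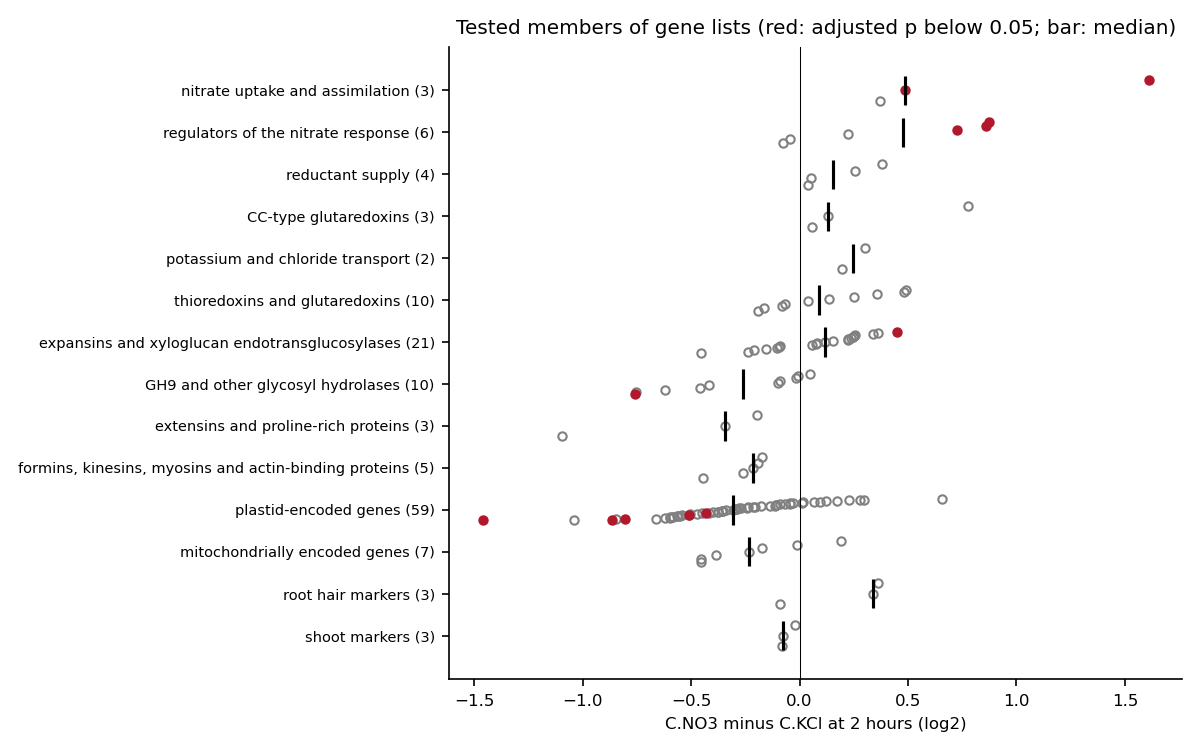
Differences (log2, C.NO3 minus C.KCl at 2 hours) of the tested members of gene lists, 1 point per probe set, with called members in red and a bar at each list's median. The called nitrate regulators lie to the right of 0, and 49 of the 59 plastid-encoded probe sets lie to the left.

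Split plates at 2 hours gave another view of the same salts, with no arrays shared. Of the 161 probe sets called higher on uniform plates 103 (64%) were also positive on split plates and 19 were called there, where 23 (0.144%) were called in all, 22 of them higher (0.138%). Of the 164 called lower 82 (50%) were also negative on split plates and 1 was called there, the only lower call on split plates (0.00628%). Over all tested probe sets 52.5% had the same sign on both. The median split-plate difference was 0.05 for the higher and 0.00 for the lower probe sets.

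The position of Sp.KCl between the uniform groups differed by direction as well. It was nearer to C.KCl for 61 of the 161 higher probe sets and for 20 of the 164 lower ones, and for 5638 of all 15922. These distances use the arrays that made the calls and carry no test.

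**Figure D3:**
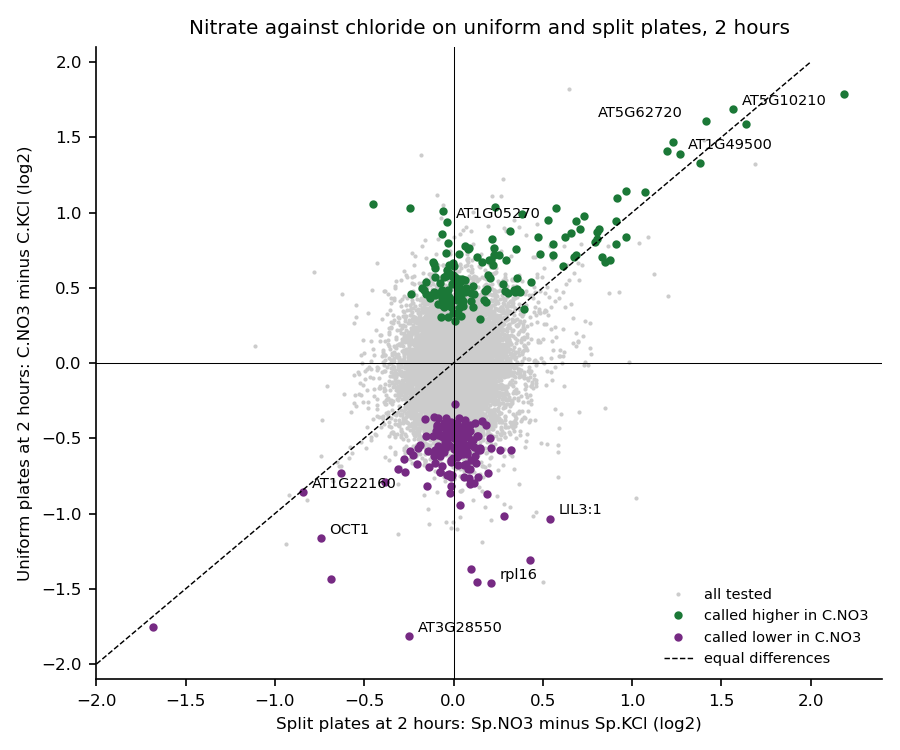
Difference on uniform plates (vertical axis, C.NO3 minus C.KCl) against the difference on split plates (horizontal axis, Sp.NO3 minus Sp.KCl) at 2 hours, both log2, 1 point per probe set, with the called ones coloured and a dashed line at equal differences. AT5G10210, AT5G62720 and AT1G49500 lie near the dashed line, while most of the 164 lower probe sets lie around 0 on the split plates.

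The levels of the called probe sets on the 12 arrays of 2 hours are set beside the 3′-5′ index. The sets were chosen for separating C.NO3 from C.KCl, whose index differs, so that the separation of those 6 arrays was fixed. Relative to those 12 arrays the median level of the 161 higher probe sets was 0.28, 0.21 and 0.15 in C.NO3, against -0.34, -0.38 and -0.31 in C.KCl. It was 0.13, 0.15 and 0.13 in Sp.NO3, against -0.05, 0.08 and -0.02 in Sp.KCl. The 164 lower probe sets had -0.32, -0.17 and -0.11 in C.NO3, against 0.29, 0.39 and 0.33 in C.KCl, while the 6 split arrays lay between -0.13 and -0.01. C.NO3 replicate 1, with the lowest index, was the most extreme nitrate array for both sets. With the index as covariate 21 of the 161 and 8 of the 164 kept their calls.

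**Figure D4:**
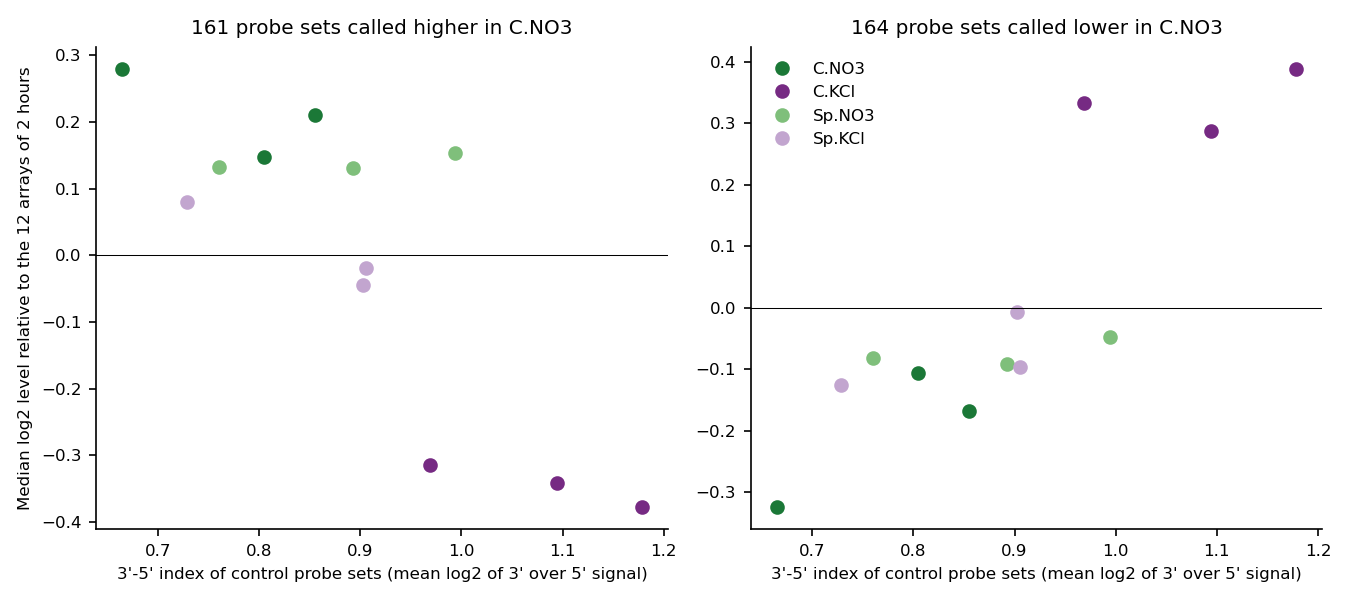
Median log2 level of the 161 higher (left) and 164 lower (right) probe sets on each of the 12 arrays of 2 hours, against the 3′-5′ index of the array. The 3 C.KCl arrays stand apart in level from the C.NO3 arrays by the choice of the probe sets, and 1 Sp.NO3 array has an index of 0.994, among those of C.KCl.

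That Sp.NO3 array, replicate 2, had an index of 0.994, above the 0.969 of C.KCl replicate 3. Its medians were 0.15 for the higher and -0.05 for the lower probe sets. The part of the index in these levels was not tested.

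The median difference on uniform plates at 2 hours fell with the span of the gene. The span is that of the gene in RefSeq (TAIR10.1), introns included, and was known for 8761 tested probe sets. The median difference was 0.05 for spans up to 1000 bp (552 probe sets), -0.08 from 3001 to 5000 bp (2090), -0.19 from 5001 to 8000 bp (489) and -0.32 over 8000 bp (116). Over 8000 bp 11 were called lower (9.48%, against 1.03% of all tested) and 0 higher (against 1.01% of all tested). The called lower genes had a median span of 3717 bp, the called higher ones 2077 bp and all tested 2329 bp.

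On split plates at 2 hours and on uniform plates at 2 days the medians stayed between -0.02 and 0.02 in every span class, and at 8 hours they were 0.08 for the shortest and -0.15 for the longest genes. With the index as covariate the median over 8000 bp at 2 hours was -0.25. With the chloride groups exchanged it was -0.06, with 0 called lower, as over all tested probe sets. By array, the median level of 605 probe sets over 5000 bp minus that of 3248 up to 2000 bp, each relative to all 36 arrays, was -0.47, -0.22 and -0.08 in C.NO3, against -0.05, 0.04 and 0.01 in C.KCl. The Sp.NO3 arrays lay between -0.21 and -0.17 and the Sp.KCl arrays between -0.25 and -0.14. C.NO3 replicate 1 was the lowest of all, and the part of span in the calls of single genes was not tested.

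**Figure D5:**
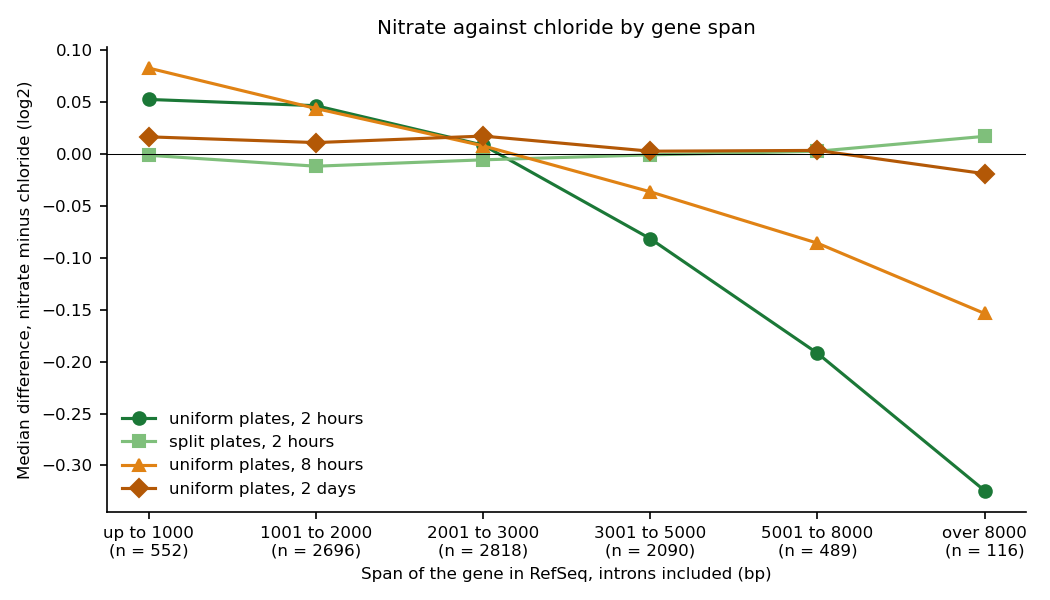
Median difference (log2, nitrate minus chloride) by span of the gene in bp, 1 line per comparison, with the number of probe sets under each class. The line of uniform plates at 2 hours lies at 0.05 for the shortest and at -0.32 for the longest genes, and that of split plates at 2 hours stays near 0.

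The difference itself was then tested against the other comparisons. Between uniform and split plates at 2 hours 3 probe sets differed (0.0188%), 1 more positive (0.00628%) and 2 more negative (0.0126%) on uniform plates, and 10 with the block. They were rpl16 (-1.67 ± 0.23, adjusted p = 0.000541), LIL3:1 (-1.58 ± 0.27, adjusted p = 0.0149) and AT1G16560 (0.77 ± 0.14, adjusted p = 0.0274). Only rpl16 kept this call without any 1 array. C.KCl replicate 1 and C.NO3 replicate 2 each decided it for LIL3:1, and these and C.NO3 replicate 1 for AT1G16560. With the chloride groups exchanged all 3 changed sign. The exchange itself turns the sign of the chloride part of this difference. A change of sign is thus fixed where the chloride groups differ more than the nitrate groups. With the block, AT1G05270 and AT2G34590 were among those that differed between plates (adjusted p = 0.0362 and 0.0464).

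Between 2 hours and 8 hours on uniform plates 17 probe sets differed (0.107%), 13 more positive (0.0816%) and 4 more negative (0.0251%) at 2 hours, and 174 with the block. The response of AT4G32950, a protein phosphatase of type 2C, differed between the times by 1.25 ± 0.17 (adjusted p = 0.000442). This gene differed between the salts by -0.22 ± 0.12 at 2 hours (not called) and by -1.47 at 8 hours (adjusted p = 2.92e-09). From 2 to 8 hours its mean fell from 3200 to 1879 in C.NO3 and rose from 3689 to 5260 in C.KCl. Its 2-hour signals overlapped, with 3901, 2539 and 3161 in C.NO3, against 3639, 3508 and 3921 in C.KCl. AT4G21720 was higher at 2 hours (0.57 ± 0.11, adjusted p = 0.00512, lost without C.KCl replicate 2), against -0.42 at 8 hours (difference 0.99 ± 0.15, adjusted p = 0.00106). FRO1 (0.65 ± 0.10), AT1G16560 (0.91 ± 0.14) and rpl16 (-1.56 ± 0.23) were the others of smallest p.

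Between 2 hours and 2 days 301 differed (1.89%), 151 more positive (0.948%) and 150 more negative (0.942%) at 2 hours, and 967 with the block. AT4G01390, whose protein has a TRAF-like domain, read 905, 668 and 1245 in C.NO3, against 1461, 1203 and 1745 in C.KCl at 2 hours (-0.67 ± 0.23, adjusted p = 0.123, blocked 0.0261) and differed by -3.17 at 2 days. MSRB5, a methionine sulfoxide reductase, differed by -0.05 at 2 hours and by 1.04 at 2 days. BAT1, an acyltransferase of brassinosteroids, differed by 0.41 at 2 hours (adjusted p = 0.0787, blocked 0.0276) and by -0.83 at 2 days. On uniform plates 62 probe sets were called at 8 hours (0.389%), 41 higher (0.258%) and 21 lower (0.132%), and 402 at 2 days (2.52%), 209 higher (1.31%) and 193 lower (1.21%). AT5G62720 was called at all 3 times, with 1.61, 1.12 and 0.90, as was AT5G10210, with 1.69, 1.91 and 0.99. AT1G22160 differed by -0.86, -0.85 and -1.54, and was called at 2 hours and at 2 days.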

How the data were processed

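The values the authors deposited are MAS5 intensity signals of 22810 probe sets on 36 arrays, on a linear scale, as read from the values and per the submitters' processing notes, which name MAS5 without a version. A 2% trimmed mean of any array comes to 500. Scanning and summary settings were not given in the sources used here. Neither detection calls nor scanner files were used, and the 3 arrays per group limit the precision.

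Signals were converted to log2 after adding 16, with no further normalization. The 64 control probe sets were left out of the tests, and so were those whose mean lay under the 30th percentile (signal 68.9), which left 15922 of 22746. In R 4.3.3, limma 3.58.1 fitted the 12 group means to all 36 arrays (24 residual degrees of freedom), with an intensity trend in eBayes. The p-values are two-sided. Scripts were tested on simulated data. Figures were drawn with matplotlib 3.10.9.

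Same-numbered repeats of C.NO3 and C.KCl at 2 hours deviated from their group means together (r = 0.432, 0.318 and 0.236 over probe sets, all above 0.1). The main fit has no term for this pairing, and calls and adjusted p-values not named as blocked ignore it. A fit with the repeats paired is given beside it. A blocked value has the repeat number within time as a term.

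The platform's annotation gives 13513 probe sets 1 gene, 503 several and 8794 none, and 13436 had a RefSeq locus tag. Of 128 listed genes it names 37, so that most classical nitrate genes are not analysed here. Named genes are the 12 higher and 12 lower calls of largest difference with 1 annotated gene, those called with the index as covariate, up to 4 called and 2 other members of each list, up to 2 called members of each family per direction, and the 5 of smallest p in each test between comparisons. Other genes, among them HRGP1, GH9B8, GH9C2, THX, TO1, ATHM2, AT1G49560, psaJ, the myosins and kinesins, were named after their values were seen. The comparison and its lists were chosen with earlier results of these data known, and the families of plastid and mitochondrial genes, GH9, myosins and the ubiquitin system were added after the annotation was seen. The index is the mean of log2 3′ over 5′ signal of 6 control pairs for actin, GAPDH and ubiquitin. Promoter and protein descriptions that were planned were not run.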

Additional observations from a re-analysis of the deposited data

Results flagged for a closer look

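The response of some genes to nitrate on uniform plates at 2 hours differed, by a test of the difference itself in the limma fit, from their response elsewhere. Each value is the log2 difference at 2 hours on uniform plates minus that of the other comparison. Against split plates at 2 hours it was -1.67 for rpl16, -1.58 for LIL3:1 and 0.77 for AT1G16560. Against uniform plates at 8 hours it was 1.25 for AT4G32950, -1.56 for rpl16, 0.91 for AT1G16560, 0.99 for AT4G21720 and 0.65 for FRO1. Against uniform plates at 2 days it was 2.37 for AT4G32950, 2.51 for AT4G01390, -1.09 for MSRB5, -1.65 for rpl16 and 1.25 for BAT1.

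For rpl16, LIL3:1, AT1G16560, AT4G21720 and FRO1 the 3 C.KCl arrays of 2 hours stood apart in their mean from the other groups of that time. With the chloride groups exchanged AT4G32950 kept both of its calls (adjusted p = 0.00155 and 5.71e-08), rpl16 changed sign against split plates (adjusted p = 5.72e-05), and the others lost theirs. That change of sign follows from the exchange, which turns the sign of the chloride part of the difference between plates. The 3′-5′ index of these C.KCl arrays was the highest of that time on average, and with the index as covariate 12 of these 13 calls held, all but that of AT1G16560 against split plates (adjusted p = 0.413).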

How the results depend on the processing

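The count of 325 stayed within 1.5 times under other filters, added values, quantile normalization, no trend and the methods' ANOVA (238 to 440). It was 16 with only the 12 arrays of 2 hours, 8 with only the 6 compared, 31 with the 3′-5′ index, 1176 with the replicate block, 93 with both, and 26 with exchanged chloride groups, and leaving out 1 array gave 53 to 711. Between plates the count of 3 became 5 with 64 added, 10 with the replicate block and 1 with exchanged groups (1 to 14 by leave-out). Between 2 and 8 hours 17 became 174 with the replicate block, 7 with the index and 1 with exchanged groups (10 to 21). Between 2 hours and 2 days 301 became 967, 93 and 3 (165 to 373). The fits of fewer arrays have fewer degrees of freedom, and the cause of the other shifts was not tested. With exchanged chloride groups these genes reversed: AT3G45090 (-0.26), AT1G05270 (-0.023), rpl16 (0.31), LIL3:1 (0.10), AT1G16560 (-0.045), AT2G34590 (-0.029), EXPA9 (-0.085) and AT4G21720 (-0.10). So did the difference of rpl16 between 2 hours and 2 days (0.52). The differences between plates of rpl16 (1.86), LIL3:1 (0.69) and AT1G16560 (-0.64) also reversed. That reversal is fixed by the exchange where the chloride groups differ more than the nitrate groups. The plastid median of -0.31 became -0.03 and that of genes over 8000 bp, -0.32, became -0.06. That fit called 0 lower, with 143 lower at an unadjusted p below 0.05. Which chloride samples are uniform, and 3 arrays per group, limit every value here.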

Other observations

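Several gene groups gave no call between C.NO3 and C.KCl roots. Of 11 RNA polymerase subunits 0 passed, with NRPA2, a subunit of RNA polymerase I, at -0.40 ± 0.11 (adjusted p = 0.0536, blocked 0.0174). Of 9 MADS-box factors 0 passed, with AGL21, a factor of lateral root growth, at 0.44 ± 0.13 (adjusted p = 0.0616, blocked 0.0108) and AGL42 at 0.35 ± 0.13 (blocked 0.0315). Of 9 genes named for SWEET carriers 0 passed in either fit, with SWEET11 at 0.55 ± 0.40. The P4-type ATPase AT1G68710 was lower at 2 hours by -0.64 ± 0.14 (adjusted p = 0.0148) and lower at 8 hours and 2 days by -0.78 and -0.74, but differed by -0.28 on split plates at 2 hours. Its 2-hour call was lost without C.KCl replicate 3 or C.NO3 replicates 1 and 2.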
